A study of Mus musculus with 2 samples.

Results

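The 49 genes described here are genes of T cells and natural killer (NK) cells, measured in a sort for Gr-1+ CD11b+ cells, the surface phenotype of neutrophils and inflammatory monocytes. They were chosen by gene symbol as transcripts of cells outside the target of the sort, and all 49 were found among the 24346 symbols measured. T cells recognise antigen through a receptor whose signal passes from the CD3 chains to the kinases Lck and Zap70 and the scaffold Lat. NK cells and cytotoxic T cells kill target cells with granules that carry perforin and granzymes, and NK cells are steered by activating and inhibitory receptors of the C-type lectin and immunoglobulin families. Naive T cells are known for the transcription factors Tcf7 and Lef1 and the interleukin 7 receptor, and neutrophils are not known for any of these programmes.

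The mice were of the BALB/c strain and had 6 days of 3% dextran sulfate sodium, which injures the colon and brings on colitis. One library came from sorted cells stimulated with ATPγS, a slowly hydrolysed analogue of ATP, at 100 µM for 2.5 hours (n = 1), and the other from cells stimulated without ATPγS (control, n = 1). The series title places the comparison in a study of the ectoenzyme E-NTPD8 and P2X4 receptor-dependent metabolism in myeloid cells. With 1 library per condition the differences below have no replicate check, no p-value can be given, and each value describes these 2 libraries.

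Values are FPKM, fragments scaled to transcript length and to the size of the library, so levels can be compared between genes. The ATPγS library held about 2848000 fragments and the control library about 2133000, as read from the smallest steps of the values. The abundant neutrophil genes S100a8 and S100a9, of the calprotectin subunits, stood at 22409.6 and 14941.6 FPKM in the ATPγS library and at 20604 and 13776 FPKM in the control library, which matches the label of the sort. A floor for the T and NK genes was taken from 1120 olfactory receptor genes, which leukocytes are not known to use as a class. Their median was 2.46 FPKM in the ATPγS library and 2.32 FPKM in the control library, and their 95th percentile 16.7 and 16.5 FPKM. Of the T and NK genes, 14 stood above that percentile in the ATPγS library and 25 in the control library, and 23 stood above it in neither. Among 999 olfactory and vomeronasal receptor genes at a mean of 1 FPKM or more, 43.8% had a counting interval of the ratio that left out 1, so counting intervals understate the spread between these libraries.

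As a group, these 49 T and NK genes, chosen with earlier results of these data known, stood lower in the ATPγS library. Their summed level was 1009 FPKM in the ATPγS library and 1844 FPKM in the control library, a ratio of 0.547. By estimated reads they took 0.186% of the ATPγS library (95% exact interval 0.181% to 0.192%) and 0.359% of the control library (0.352% to 0.368%), counting error only. These shares are approximate. Estimated reads of all genes summed to 3.09e+06 in the ATPγS library and 2.34e+06 in the control library, more than the fragments given above. A lower level of a transcript in such bulk RNA can mean fewer cells of a type or less RNA per cell, and these cannot be told apart. The median log2 ratio, of ATPγS over control FPKM with 1 added to each, was -0.75 over the 49 genes. Over all 18311 genes at a mean of 1 FPKM or more it was 0.01, at 5 FPKM or more -0.09 and at 20 FPKM or more -0.12. Other lists of T and NK cell genes, described below, had medians from -0.21 to 0.55, so the lower level is that of the 49 genes. All 49 reached a mean of 1 FPKM, although 6 of them (Cd5, Prf1, Ifng, Tbx21, Klrb1c and Cd226) stood below 1 FPKM in 1 library.

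On that scale 17 of the 49 genes (34.7%) were at least 2-fold lower in the ATPγS library, where 9.91% of all genes were, and 3 (6.12%) were at least 2-fold higher, where 13.8% of all genes were. At a mean of 5 FPKM or more, 15 of 39 members were at least 2-fold lower, beside 9.04% of all genes at that level, and 1 was higher, beside 7.48%. Of the 15 that averaged 20 FPKM or more, 7 were at least 2-fold lower, beside 5.0% of all genes at that level, and 0 were higher, beside 2.3%. The counting interval of the ratio lay wholly below 1 for 29 members (59.2%), beside 23.6% of the 17565 genes with a length, and wholly above 1 for 4 (8.16%), beside 23.3%. Better counted genes leave out 1 more often. At a mean of 5 FPKM or more, the interval lay below 1 for 27 members, above 1 for 2 and included 1 for 10. Over all genes at that level these counts were 3019, 2071 and 4426. The log2 ratio was below 0 for 35 members (71.4%), beside 49.6% of all genes. At a mean of 5 FPKM or more it was below 0 for 30 of 39 members, beside 5539 of 9892 genes. At 20 FPKM or more it was below 0 for 13 of 15 members, beside 2113 of 3480 genes. The medians differed between the groups of genes, and that difference was not tested. Genes of T cell receptor signalling and of naive T cells had median log2 ratios of -0.87 (27 genes) and -0.75 (7 genes), NK receptors -0.47 (7 genes) and cytotoxic genes 0.34 (8 genes). The mean of the cytotoxic genes was -0.19, of the opposite sign to their median.

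**Figure D1:**
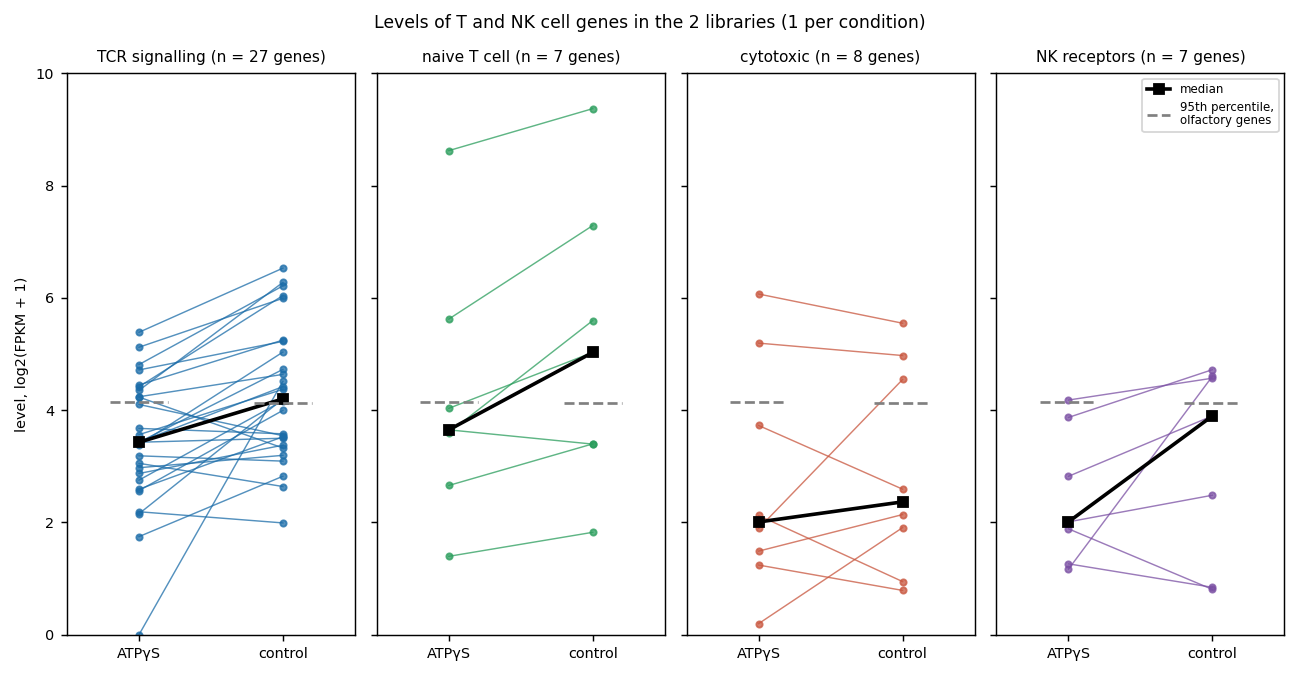
Level of each T and NK cell gene as log2(FPKM + 1) in the ATPγS and control libraries, with the gene's values joined by a line, the group median as black squares and the 95th percentile of olfactory receptor genes as a dashed line. Most lines of T cell receptor signalling and naive T cell genes run upward to the control side, while cytotoxic genes run both ways.

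**Figure D2:**
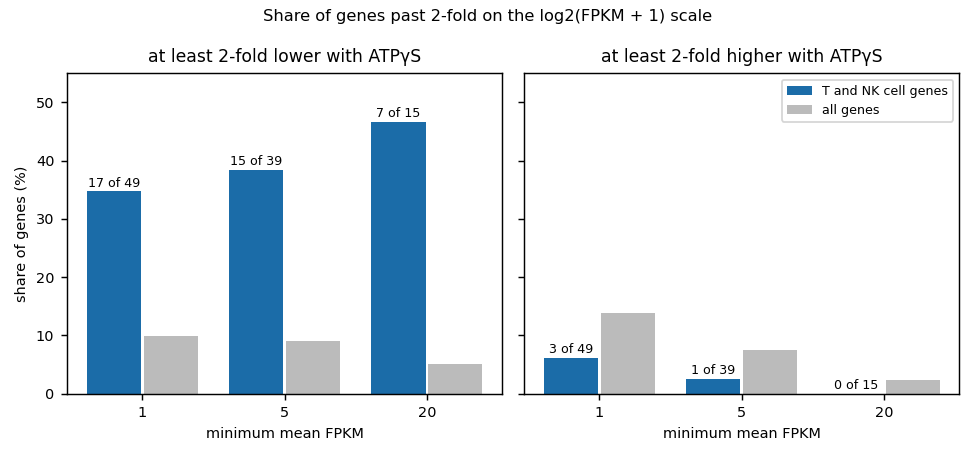
Share in percent of T and NK cell genes (blue, with their counts) and of all genes (grey) at least 2-fold lower or higher in the ATPγS library, at a minimum mean FPKM of 1, 5 and 20. In the lower direction the counts are 17 of 49, 15 of 39 and 7 of 15, and in the higher direction 3 of 49, 1 of 39 and 0 of 15.

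The CD3 chains, which carry the signal of the T cell receptor into the cell, were lower in the ATPγS library except for the zeta chain. Cd3g stood at 19.4 FPKM in the ATPγS library and 76.5 FPKM in the control library, a ratio of 0.254 (counting interval 0.186 to 0.347). Cd3d stood at 9.46 FPKM in the ATPγS library and 31.8 FPKM in the control library (ratio 0.298, interval 0.206 to 0.429). Cd3e stood at 20.8 FPKM in the ATPγS library and 37.0 FPKM in the control library. All 3 CD3 genes thus stood lower with ATPγS, and 2 of them passed 2-fold, beside 9.91% of all genes. Cd247, of the zeta chain, which also signals for NK receptors, stood at 11.8 FPKM in the ATPγS library and 10.9 FPKM in the control library, and its counting interval (0.722 to 1.65) includes no difference. Cd3e and Cd247 overlap other annotated genes, and the library preparation does not mark strand, so reads of these partners cannot be told apart. Cd3g, Cd3d and Cd3e lie within 40.1 kb of chromosome 9 (GRCm38, 44969572 to 45009627), with Cd3g and Cd3d on opposite strands and 1.354 kb between them.

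The windows around the starts of Cd3g and Cd3d are shown because these neighbours, with ratios of 0.254 and 0.298, share the stretch between their starts. Each runs from 250 bases before to 50 bases after a RefSeq start (GRCm38.p6), and capitals mark matches to 4 short motifs on either strand: AGGAAG of ETS factors, TGTGGT of RUNX factors, CTTTGA of TCF/LEF factors and AGATAA of GATA factors. No motif contains another or is its own reverse complement.
Cd3g (chr9:44980382-44980681, minus strand): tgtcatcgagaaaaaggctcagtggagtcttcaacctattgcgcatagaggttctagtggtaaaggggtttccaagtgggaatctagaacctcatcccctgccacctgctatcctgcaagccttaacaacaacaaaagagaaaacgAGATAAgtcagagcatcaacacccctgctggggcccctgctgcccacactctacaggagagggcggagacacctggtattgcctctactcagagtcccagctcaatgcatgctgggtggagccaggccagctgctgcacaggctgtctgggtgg
Cd3d (chr9:44981536-44981835, plus strand): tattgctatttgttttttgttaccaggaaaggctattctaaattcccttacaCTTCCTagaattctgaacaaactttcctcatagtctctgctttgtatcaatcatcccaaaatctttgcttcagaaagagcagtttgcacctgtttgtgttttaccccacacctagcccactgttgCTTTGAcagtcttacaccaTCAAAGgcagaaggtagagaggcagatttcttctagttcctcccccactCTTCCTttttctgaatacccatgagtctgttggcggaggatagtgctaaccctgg

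The Cd3g window held 1 match, to the GATA motif, and the Cd3d window 4, of which 2 were to the ETS and 2 to the TCF/LEF motif. Over 48 windows of 35 members with an entry, 47.9% held the ETS motif, beside 34.1% of 20754 windows of all measured genes. The RUNX motif was in 33.3% of members' windows and 14.5% of all windows, the TCF/LEF motif in 22.9% and 14.6%, and the GATA motif in 8.33% and 9.56%. The windows of Tcf7, which are not printed here, held 0 matches to these motifs. A match is a run of letters and not a bound site.

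Of the kinases, adaptors and regulators of the receptor signal, 10 of 11 had a log2 ratio below 0, beside 49.6% of all genes. At a mean of 5 FPKM or more, 5539 of 9892 genes were below 0. At least 2-fold lower in the ATPγS library were 6 of the 11, beside 9.91% of all genes. Lck, the Src family kinase that phosphorylates the CD3 chains, stood at 20.4 FPKM in the ATPγS library and 64.9 FPKM in the control library (ratio 0.314, interval 0.251 to 0.388). Lat, the scaffold on which downstream enzymes gather, stood at 3.45 FPKM in the ATPγS library and 17.4 FPKM in the control library, from about 12.1 and 45.8 reads. Dgka, of a diacylglycerol kinase that damps the signal, stood at 27.1 FPKM in the ATPγS library and 73.2 FPKM in the control library. These 3 ratios lie between 0.199 and 0.370. Also at least 2-fold lower were the Tec family kinase gene Txk (5.74 FPKM in the ATPγS library, 17.0 in the control), Sh2d1a, of the SLAM receptor adaptor SAP (4.93 and 14.96 FPKM in the same order), and Themis, of a regulator of receptor signal strength (2.36 and 6.08 FPKM). Sh2d1a, Dgka and Themis overlap another measured gene on the opposite strand, of which 4930519F09Rik, the partner of Themis, stood at 82.2 FPKM in the ATPγS library and 71.2 FPKM in the control library.

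Zap70, the kinase recruited to phosphorylated CD3 chains, stood at 5.03 FPKM in the ATPγS library and 10.5 FPKM in the control library, a ratio of 0.478 that does not reach 2-fold once 1 is added to each value. The adaptor genes Sh2d2a (10.8 FPKM in the ATPγS library, 19.7 in the control) and Trat1 (17.9 and 23.9 FPKM) were lower with counting intervals below 1. Skap1, of an adaptor that links the receptor to integrins, stood at 6.32 FPKM in the ATPγS library and 9.38 FPKM in the control library, with an interval (0.386 to 1.17) that includes no difference. Ubash3a, of a suppressor of receptor signalling, was the 1 gene of this set above 0, at 8.11 FPKM in the ATPγS library and 7.53 FPKM in the control library (interval 0.846 to 1.36).

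The window of Lck, the kinase gene with the most estimated reads among those below a ratio of 0.35, is printed as above, at its upstream start.
Lck (chr4:129573592-129573891, minus strand): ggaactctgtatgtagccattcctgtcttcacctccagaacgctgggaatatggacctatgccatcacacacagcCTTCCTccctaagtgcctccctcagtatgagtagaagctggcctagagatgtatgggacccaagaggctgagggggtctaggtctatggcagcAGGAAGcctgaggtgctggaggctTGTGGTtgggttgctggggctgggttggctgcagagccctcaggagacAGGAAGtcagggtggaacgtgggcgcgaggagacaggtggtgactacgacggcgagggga
It held 3 matches to the ETS motif and 1 to the RUNX motif. The window at the downstream start of Lck, not printed, held 1 match, to the ETS motif.

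Among coreceptors and surface receptors of T cells, 3 of 12 lay past the 2-fold line on the lower side with ATPγS and 0 on the higher side. Over all genes these shares were 9.91% and 13.8%. Cd69, of an activation receptor that other activated leukocytes also use, stood at 40.8 FPKM in the ATPγS library and 91.3 FPKM in the control library (ratio 0.447, interval 0.372 to 0.534). Ctla4, of an inhibitory receptor, stood at 9.77 FPKM in the ATPγS library and 25.5 FPKM in the control library. Cd5, of another inhibitory receptor, was listed at 0 in the ATPγS library and at 21.8 FPKM, about 96.3 reads, in the control library. A listed 0 may also come from an estimate that failed, and no fold is given. Cd5 was the 1 protein-coding gene of 3382 at 20 FPKM or more in the control library that was listed at 0 in the ATPγS library. Without Cd5, 16 of 48 members were at least 2-fold lower.

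Cd2, of an adhesion receptor, stood at 33.8 FPKM in the ATPγS library and 62.6 FPKM in the control library, and Cd6, of a receptor for the adhesion molecule ALCAM, at 9.79 and 20.4 FPKM in the same order. Icos, of a costimulatory receptor, stood at 25.3 FPKM in the ATPγS library and 36.4 FPKM in the control library, and all 3 had counting intervals below 1. Cd28, of the costimulatory receptor that shares its ligands with CTLA-4, stood at 9.77 FPKM in the ATPγS library and 10.3 FPKM in the control library and is above 0 after rescaling to a median log2 ratio of 0. Cd28, Ctla4 and Icos lie together on chromosome 1, so 3 neighbours of 1 receptor family had ratios of 0.947, 0.384 and 0.695.

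Among the coreceptor genes, Cd4 had a ratio below 1, as Cd3d, Cd3e and Cd3g did, and Cd8a and Cd8b1 had ratios above 1. Cd4, of the coreceptor for MHC class II, stood at 6.86 FPKM in the ATPγS library and 8.16 FPKM in the control library, and Cd8a, of the coreceptor for MHC class I, at 3.57 and 2.98 FPKM in the same order; both counting intervals include no difference. Cd8b1, of the other CD8 chain, stood at 17.8 FPKM in the ATPγS library and 9.03 FPKM in the control library (ratio 1.97, interval 1.25 to 3.08). The surface protein gene Thy1 (7.30 FPKM in the ATPγS library, 5.23 in the control) and Cd27, of a receptor of the TNF receptor family (16.2 and 10.7 FPKM), had intervals that include no difference. Cd27 overlaps the microRNA gene Mir8113, listed at 187 FPKM in the ATPγS library and 0 in the control library. Cd4, Cd8a, Thy1 and Cd27 stood below the 95th percentile of olfactory receptor genes in both libraries.

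**Figure D3:**
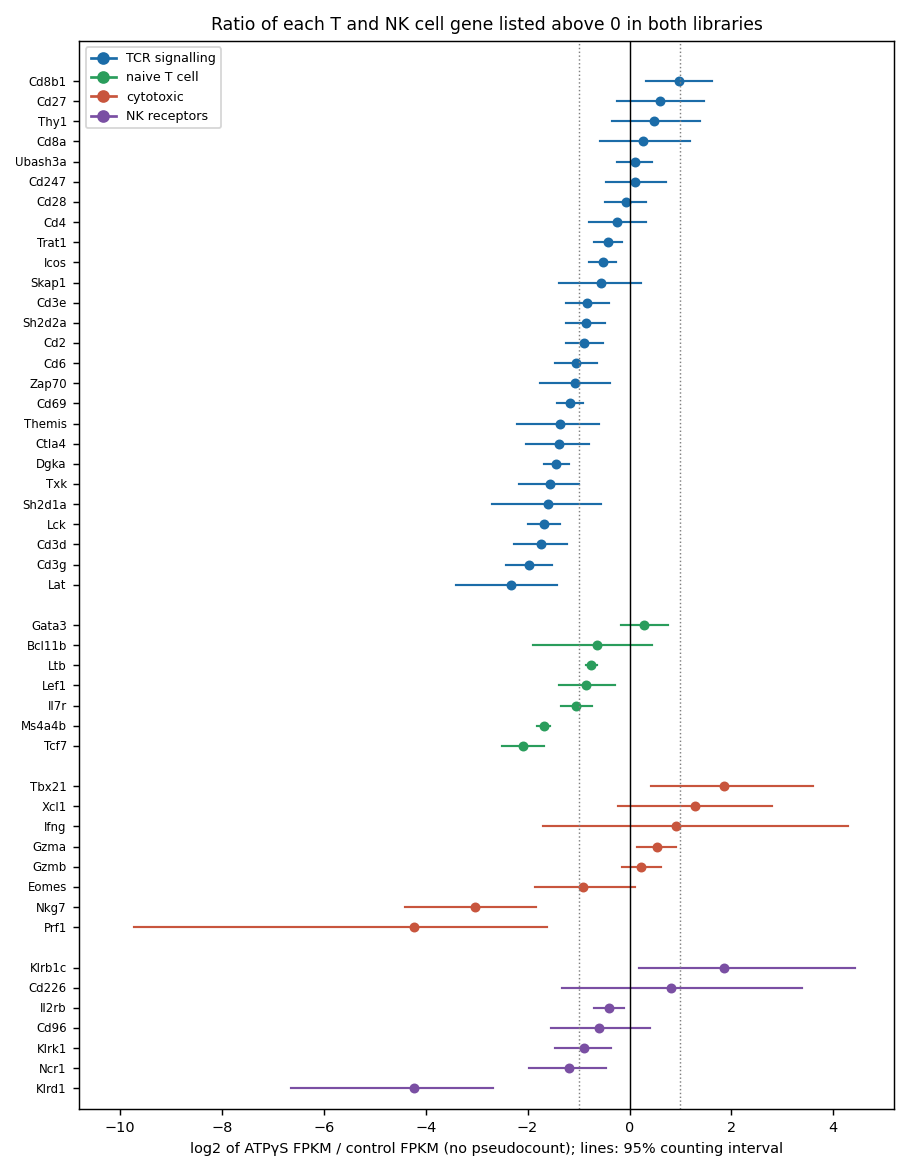
Ratio of ATPγS to control FPKM on a log2 axis for the 48 genes listed above 0 in both libraries, by group from top to bottom, with 95% counting intervals as lines and 2-fold marked by dotted lines. Lat, Cd3g, Tcf7, Nkg7, Prf1 and Klrd1 lie farthest to the left, and the widest lines belong to genes with few estimated reads.

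Naive T cell and lineage genes held the 2 most abundant members. Ltb, of lymphotoxin beta, which B cells also make, stood at 393 FPKM in the ATPγS library and 660 FPKM in the control library (ratio 0.595, interval 0.553 to 0.640). It made up 38.9% of the summed level of the list in the ATPγS library and 35.8% in the control library, and without it the ratio of the sums was 0.521. Ms4a4b, of a membrane protein of T cells, stood at 48.3 FPKM in the ATPγS library and 155 FPKM in the control library (ratio 0.311, interval 0.283 to 0.341). With about 653 and 1573 reads, Ms4a4b is the best counted gene past 2-fold in the list.

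Tcf7, of the transcription factor TCF-1, stood at 11.1 FPKM in the ATPγS library and 47.4 FPKM in the control library, a ratio of 0.234 (interval 0.176 to 0.311). Lef1, of its relative LEF-1, stood at 5.32 FPKM in the ATPγS library and 9.55 FPKM in the control library (interval 0.383 to 0.820). Il7r, of the interleukin 7 receptor, stood at 15.4 FPKM in the ATPγS library and 31.6 FPKM in the control library, a log2 ratio of -0.996 that just misses 2-fold. Thus 5 of the 7 genes had counting intervals below 1, beside 23.6% of all genes with a length at a mean of 1 FPKM or more. That share was larger among genes at higher levels, by the counts given above. The 2 of them past 2-fold were Ms4a4b and Tcf7, beside 9.91% of all genes. The T lineage factor gene Bcl11b (1.63 FPKM in the ATPγS library, 2.54 in the control) was near the olfactory median, and Gata3, of a factor of helper and innate lymphoid cells, stood at 11.5 and 9.52 FPKM, both with intervals that include no difference.

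Cytotoxic genes split. Gzma, of a granzyme with trypsin-like activity and the most abundant of the group, stood at 66.1 FPKM in the ATPγS library and 45.8 FPKM in the control library (ratio 1.44, interval 1.10 to 1.89). Gzmb, of the granzyme that cleaves caspases, stood at 35.6 FPKM in the ATPγS library and 30.4 FPKM in the control library (interval 0.900 to 1.54). Nkg7, of a granule membrane protein of the same cells, had a ratio below 1, at 2.71 FPKM in the ATPγS library and 22.4 FPKM in the control library (ratio 0.121, interval 0.0473 to 0.280, from about 6.81 and 42.0 reads). Prf1, of the pore-forming protein perforin, stood at 0.147 FPKM in the ATPγS library and 2.75 FPKM in the control library, from about 1.04 and 14.5 reads. The granzymes and these granule partners thus had ratios on opposite sides of 1. Gzma was 3.404 times the level of Cd3g in the ATPγS library and 0.599 times in the control library.

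The 2 T-box factors of cytotoxic cells pointed apart at low levels, Tbx21, of T-bet, at 3.36 FPKM in the ATPγS library and 0.928 FPKM in the control library (interval 1.34 to 12.1) and Eomes at 1.81 and 3.41 FPKM in the same order (interval 0.278 to 1.08). Xcl1, of a chemokine that attracts cross-presenting dendritic cells, stood at 12.2 FPKM in the ATPγS library and 5.03 FPKM in the control library, but about 18.2 and 5.61 reads leave an interval (0.854 to 6.91) that includes no difference. Xcl1 also overlaps Gm20743 on the opposite strand (4.93 FPKM in the ATPγS library, 5.53 in the control). Ifng, of interferon gamma, was at 1.36 FPKM in the ATPγS library and 0.729 FPKM in the control library, within the range of olfactory receptor genes. Tbx21 and Xcl1 are 2 of the 3 members at least 2-fold higher, and neither exceeded the 95th percentile of olfactory receptor genes in either library. The 23 members below that percentile in both libraries include all 3 higher genes and 4 of the 17 lower ones (Themis, Sh2d1a, Prf1 and Ncr1), and their median log2 ratio was -0.07. The 13 members above it in both libraries had a median of -0.80, with 5 at least 2-fold lower and 0 higher. The 12 above it only in the control library, a class whose making favours lower ratios, held 8 of the lower genes. Over all genes at a mean of 1 FPKM or more, 9.91% were at least 2-fold lower and 13.8% higher. At a mean of 20 FPKM or more, nearer the level of the 13 members, these shares were 5.0% and 2.3%.

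The windows of Nkg7 and Gzma, granule genes on opposite sides of a ratio of 1, are printed with the same capitals.
Nkg7 (chr7:43436888-43437187, plus strand): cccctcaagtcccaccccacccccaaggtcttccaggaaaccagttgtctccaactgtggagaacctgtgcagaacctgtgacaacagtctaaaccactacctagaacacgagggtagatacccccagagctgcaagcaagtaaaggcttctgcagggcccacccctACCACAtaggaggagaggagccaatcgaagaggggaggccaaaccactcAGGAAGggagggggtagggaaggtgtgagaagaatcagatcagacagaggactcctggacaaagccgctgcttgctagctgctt
Gzma (chr13:113100932-113101231, minus strand): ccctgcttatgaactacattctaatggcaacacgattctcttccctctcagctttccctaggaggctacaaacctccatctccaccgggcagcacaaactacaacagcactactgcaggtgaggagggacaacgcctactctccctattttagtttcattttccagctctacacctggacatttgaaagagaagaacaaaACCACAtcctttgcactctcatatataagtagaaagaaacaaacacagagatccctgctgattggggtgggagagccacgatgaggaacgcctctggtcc
Both held 1 RUNX match, and Nkg7 also 1 ETS match.

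Among NK receptor genes, Klrd1, of CD94, stood at 1.25 FPKM in the ATPγS library and 23.3 FPKM in the control library, a ratio of 0.0535 (interval 0.00993 to 0.156, from about 3.18 and 44.5 reads). Klrk1, of the activating receptor NKG2D, which lies within 32.1 kb of Klrd1 on chromosome 6, stood at 13.6 FPKM in the ATPγS library and 25.4 FPKM in the control library (ratio 0.537). Ncr1, of the activating receptor NKp46 and a defining gene of NK cells, stood at 6.07 FPKM in the ATPγS library and 13.9 FPKM in the control library (ratio 0.437, interval 0.255 to 0.729). These 3 stood lower in the ATPγS library with counting intervals below 1. Il2rb, of the beta chain of the receptors for interleukins 2 and 15, was lower as well, at 17.1 FPKM in the ATPγS library and 22.7 FPKM in the control library (interval 0.620 to 0.923).

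Like Ncr1, Klrb1c, of NK1.1, was taken as a defining gene of NK cells, but its ratio lay above 1. It was the 1 NK receptor gene at least 2-fold higher. Its levels were 2.70 FPKM in the ATPγS library and 0.750 FPKM in the control library, from about 16.4 and 3.42 reads. It has close relatives in the same gene cluster, and the mice were BALB/c while the build is that of C57BL/6J. Whether reads were shared or lost was not tested. Cd96 (3.03 FPKM in the ATPγS library, 4.60 in the control) and Cd226 (1.4 and 0.796 FPKM), of receptors that share the ligand CD155, stood at low levels with intervals that include no difference.

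Further genes of these programmes were taken from lists chosen by role. The median log2 ratio of 18 other genes of T cell receptor signalling was -0.21. Of the 18, 2 were at least 2-fold lower with ATPγS and 0 higher, beside 9.91% and 13.8% of all genes. The 2 were Rasgrp1, of an activator of Ras (4.26 FPKM in the ATPγS library, 9.84 in the control), and Cd40lg, of the helper ligand CD40L (3.66 and 8.73 FPKM). The 2 most abundant, Lcp2 (107 FPKM in the ATPγS library, 135 in the control) and Vav1 (99.9 and 111 FPKM), are also signalling genes of myeloid cells. Of 11 other naive and homing genes, 0 passed 2-fold in either direction, beside the same shares of all genes, and the median was -0.09. Ccr7, of the receptor that guides cells to lymph nodes, stood at 181 FPKM in the ATPγS library and 167 FPKM in the control library, and Igfbp4, of a binding protein of insulin-like growth factors, at 159 and 170 FPKM.

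Of 11 other cytotoxic genes, 10 were at a mean of 1 FPKM or more, with a median of 0.55. Beside 9.91% of all genes lower and 13.8% higher, 2 of the 10 passed 2-fold in each direction. The lower ones were Klrg1, of an inhibitory receptor of effector cells (12.2 FPKM in the ATPγS library, 31.8 in the control), and Ctsw, of cathepsin W (4.52 and 10.7 FPKM). The higher ones were Cst7, of the inhibitor cystatin F, which myeloid cells also make (12.98 FPKM in the ATPγS library, 4.69 in the control), and Fasl, named after its values were seen (6.77 FPKM in the ATPγS library, listed at 0 in the control). The most abundant, the chemokine gene Ccl5, stood at 342 FPKM in the ATPγS library and 258 FPKM in the control library, and Serpinb9, of a granzyme B inhibitor, at 28.3 and 21.6 FPKM.

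Of 24 other NK receptor genes, 18 were at a mean of 1 FPKM or more. None of the 18 was at least 2-fold lower and 1 was at least 2-fold higher, beside 9.91% and 13.8% of all genes. The higher one was Cd160 (6.64 FPKM in the ATPγS library, 0.787 in the control, named after its values were seen). The median of the 18 was 0.05, and Tigit (22.4 FPKM in the ATPγS library, 32.4 in the control) and Klra2 (20.7 and 29.0 FPKM) were the most abundant. Klra4, Klra6, Klra8 and Klra9, of the Ly49 receptors that vary between mouse strains, were listed at 0 in both libraries.

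Markers of other cells in the sort were set beside these values. The 16 B cell markers summed to 1038 FPKM in the ATPγS library and 1468 FPKM in the control library, a ratio of 0.707. Of 15 at a mean of 1 FPKM or more, 2 were at least 2-fold lower, beside 9.91% of all genes, and 1 higher, beside 13.8%. The lower ones were Fcer2a (12.5 FPKM in the ATPγS library, 29.8 in the control) and Cr2 (2.17 and 6.76 FPKM, named after its values were seen). The higher one was Cd22 (6.00 and 1.73 FPKM, likewise named afterwards). The median was -0.53, and the most abundant, Jchain (643 FPKM in the ATPγS library, 930 in the control) and Cd79a (85.9 and 133 FPKM), stood lower with ATPγS. The 14 matched markers of neutrophils and of the sort summed to 40519 FPKM in the ATPγS library and 37584 FPKM in the control library (ratio 1.08). Most of both sums came from S100a8 (22409.6 and 20604 FPKM in the same order) and S100a9 (14941.6 and 13776 FPKM). The median log2 ratio of the 12 at a mean of 1 FPKM or more was 0.09. Of these 12, 1 was at least 2-fold higher, beside 13.8% of all genes. It was the granule gene Camp (28.9 FPKM in the ATPγS library, 12.2 in the control). Ly6g, also listed as a marker, had no match. The part of the share of lymphocytes in each sort in the lower T and NK values was not tested.

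**Figure D4:**
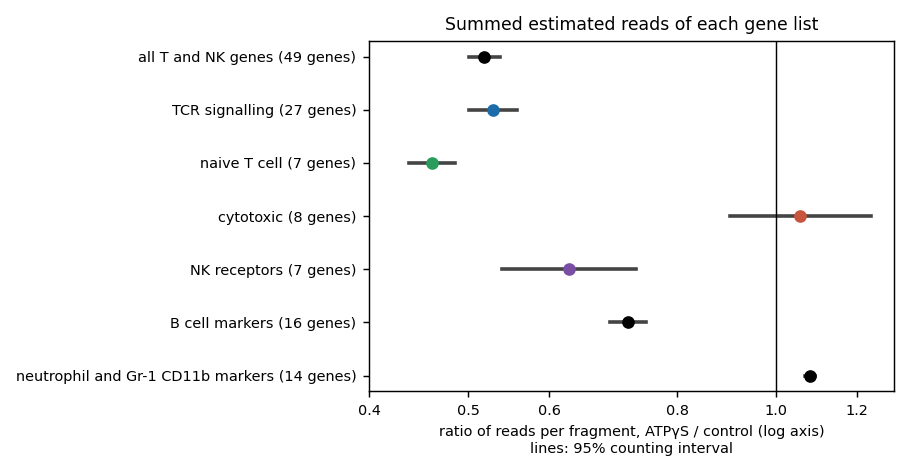
Ratio of the summed estimated reads per fragment of each gene list, ATPγS over control on a log axis, as points with 95% counting intervals as lines. All T and NK genes stand at 0.519, naive T cell genes at 0.461, cytotoxic genes at 1.05 with a line that crosses 1, B cell markers at 0.716 and neutrophil markers at 1.08. S100a8 and S100a9 hold most of the reads of the neutrophil markers.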

How the data were processed

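RNA of Gr-1+ CD11b+ cells was measured in 2 libraries, 1 per condition. Per the labels' protocols, RNeasy columns gave the RNA, SMART-Seq HT the cDNA and Nextera, which does not mark strand, the libraries. Cufflinks 2.2.1, SAMtools 0.1.19, TopHat2 2.0.13 with Bowtie2 2.2.3, and the build mm10 are named per the submitters' processing notes. Their options and the annotation are not given here. The deposited values are FPKM, 1 per symbol, with 24346 symbols in each table. The label stores the prefix of the ATPγS unit in a symbol font, read as µ.

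FPKM are not counts, and no count test was run. For the log2 ratio, 1 was added to both FPKM values before ATPγS was divided by control, so differences of low genes are understated; printed ratios have no pseudocount. Genes at a mean of 1 FPKM or more (averaged over the pair of libraries) were counted at 2-fold. Fragments per library were the number for which FPKM times coding length was most often whole, within 0.05 reads, in 1430 olfactory and vomeronasal receptor genes; 65.0% of values under 10 reads were whole in the ATPγS library and 65.3% in the control, where chance gives 10%. GENCODE M21 transcripts (GRCm38, which mm10 is; 23310 symbols matched) gave lengths for the approximate reads per gene. Intervals are 95% Clopper-Pearson and cover counting error only. Promoter windows are from RefSeq. The steps were tested on simulated Poisson counts, which hold counting error only. That checks the code and not the spread between these libraries. Python 3.11.15, pandas 2.3.3, numpy 2.4.6 and scipy 1.17.1 were used.

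The members and lists were chosen with earlier results of these data known. Every member was named, and of each other list the 2 most abundant genes and those at a mean of 5 FPKM or more past 2-fold. The alternatives were other pseudocounts, rescalings, minimum means, thresholds, means for the medians of all members and of T cell receptor signalling, and members left out; leaving out Cd5 or Ltb was added after seeing the data. None of the 9 symbols listed for T cell receptor constant segments matched, and they are not analysed here.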

Additional observations from a re-analysis of the deposited data

How the results depend on the processing

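The median log2 ratio of the T and NK genes and the medians of the 4 groups kept their sign under the other pseudocounts, rescalings and minimum means. The mean had the sign of the median for all T and NK genes and for T cell receptor signalling, and the opposite sign for cytotoxic genes (-0.19). The 17 genes at least 2-fold lower became 27 at 1.5-fold, 10 at 3-fold and 7 at a mean of 20 FPKM or more. At that mean 5.0% of all genes were lower. The 3 higher became 0 with a pseudocount of 5, at 3-fold and at a mean of 20 FPKM or more, and 1 at a mean of 5 FPKM or more. At those means 2.3% and 7.48% of all genes were higher. Shares of all genes at 1.5-fold, at 3-fold or with a pseudocount of 5 were not computed, so those counts of members cannot be set beside them. With a pseudocount of 5 the medians were -0.59 (all), -0.64 (T cell receptor signalling), 0.17 (cytotoxic) and -0.33 (NK receptors), and with 0.1 the NK receptor median was -0.59. Rescaling to a median log2 ratio of 0 gave -0.63 (all), -0.74 (T cell receptor signalling), -0.63 (naive T cell) and 0.44 (cytotoxic). At a mean of 5 FPKM or more the medians were -0.85 (all), -0.87 (naive T cell) and -0.96 (NK receptors), and at 20 they were -0.996 (all), -1.14 (T cell receptor signalling) and -1.33 (naive T cell), where no NK receptor gene was left. The ratio of summed FPKM was 0.568 after rescaling to the same sum, 0.599 after rescaling to a median of 0, 0.480 without members known in other blood cells and 0.521 without Ltb. The cause of these shifts was not tested.

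The rescalings moved the median log2 ratio of all genes averaging 10 FPKM or more by 0.05 when sums were equalised and by 0.13 when that median was set to 0. Of 196 values of single members under 4 alternatives, 187 lay in the counting interval of the ratio. The values hold a pseudocount and the intervals do not, so this does not measure how far a value moved. Cd5 counted as outside under both rescalings although its log2 ratio remained -4.51. Cd28 was the 1 member that changed sign (to 0.05). No paired analysis was possible because each condition has 1 library. Depth limits Prf1, Ifng, Klrd1, Klrb1c, Cd226 and Tbx21, which rest on under 10 estimated reads in at least 1 library, as do Nkg7 and Xcl1.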

Other observations

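Of 15 genes of helper, regulatory and innate lymphoid cells, 14 were at a mean of 1 FPKM or more (median log2 ratio -0.06). Beside 9.91% of all genes lower and 13.8% higher, 3 of the 14 were at least 2-fold lower in the ATPγS library and 2 higher. The lower ones were Foxp3, of the transcription factor that defines regulatory T cells (5.16 FPKM in the ATPγS library, 11.4 in the control), Tnfrsf4, of the costimulatory receptor OX40 (21.6 and 47.7 FPKM), and Maf, named after its values were seen (1.26 and 4.12 FPKM). Tnfrsf18, of the receptor GITR, which regulatory T cells carry, stood at 31.8 FPKM in the ATPγS library and 60.7 FPKM in the control library (interval 0.395 to 0.689). The higher ones, named after their values were seen, were Zbtb16, of the factor PLZF of innate-like lymphocytes (4.14 FPKM in the ATPγS library, 1.25 in the control), and Il13 (3.82 FPKM in the ATPγS library, listed at 0 in the control).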
